A study of Mus musculus with 20 samples.

Results

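Gene expression in the ventral prostate of ARNoC/Y males was compared between 5 libraries from mice given testosterone and 5 libraries from mice given vehicle. All of these mice had first been orchidectomised, that is, the testes had been removed, and the replacement ran for 4 days. ARNoC mice carry an altered androgen receptor in which the amino-terminal and carboxyl-terminal parts of the protein no longer interact, and ARNoC/Y denotes males, whose single X chromosome holds the receptor gene. The 10 wild type (WT, C57BL/6J) libraries of the series, 5 with vehicle and 5 with testosterone after the same surgery, entered the same fit and served for the test of a difference between genotypes. The genes described are those with at least 10 normalized counts (counts divided by the size factor of the library) in at least 5 of the 10 ARNoC libraries, which held for 14595 of the 43472 genes listed. Of these, 12981 reached the minimum in all 10 libraries. A further 39 genes passed in all 5 vehicle libraries and in no testosterone library, and 52 passed the other way round. Those 91 genes had to differ between the groups. Just inside the rule were 307 genes at the minimum in exactly 5 libraries, and just outside it 261 genes at the minimum in exactly 4. The sources used here do not give the dose, the vehicle, the age of the mice or the time between surgery and replacement. The labels do not say whether each library is its own animal, so the p-values reflect only how these libraries spread, which may be technical.

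The ventral prostate is a gland whose luminal epithelial cells fill the ducts with secreted protein. Testosterone, acting directly or as dihydrotestosterone, binds the androgen receptor, which then enters the nucleus and regulates genes. After removal of the testes the gland is known to regress, with loss of luminal cells and secretion, and androgen replacement is known to bring regrowth. In bulk tissue, fewer cells of a type and less RNA per cell cannot be told apart.

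Libraries held 9791564 to 21600352 counts, and the 2 groups did not differ in depth by a two-sided exact permutation test of 5 against 5 (p = 0.905). All 20 pairs of replicates within the ARNoC groups differed beyond counting noise (chi-square over its degrees of freedom 11.1 to 42.7, against 1 for noise). The 10 genes with most counts held 6.81% to 10.4% of a vehicle library and 18.4% to 20.8% of a testosterone library, a difference of 11.5 percentage points (exact permutation p = 0.00794, the smallest that 5 against 5 allows). Scaling by total counts lowered the median log2 change of all genes by 0.342. The values given here use trimmed means of M-values (TMM), which left that median at -0.00905. Relative to the median of all genes, the medians of the gene lists differed by at most 0.044 between the 2 scalings. Markers of the seminal vesicle, a neighbouring gland, summed to 1.05 to 13.9 normalized counts with vehicle and to 0 to 4.68 with testosterone, and none of the 11 passed the filter. Of 17 markers of the epididymis, 2 were tested and 1, Adam7, rose. Adam7 stood at 1.44, 0, 0, 0 and 0 with vehicle and at 333, 534, 2649, 155 and 140 with testosterone. It passed the filter through the testosterone group alone, and its log2 change of 10.8 was the largest of all genes tested. Whether epididymal tissue was carried over was not tested.

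The response of the ARNoC gland was broad, with rises and falls in similar number. Of the 14595 genes, the quasi-likelihood test of edgeR, with p-values adjusted by Benjamini-Hochberg and a threshold of 0.05, called 5449 (37.3%). Of these, 2898 rose (19.9% of the genes tested) and 2551 fell (17.5%). That balance depended on the scaling: with total counts the test called 1143 higher and 7433 lower, and the median log2 change was -0.351. The counts of each list below are to be read against those of all genes under the same scaling. Levels are in normalized counts, given for libraries 1 to 5 in order or as the lowest–highest of the 5, and folds and log2 changes (testosterone minus vehicle) come from edgeR. The SE given with a log2 change is an approximation, the absolute change divided by the square root of the F statistic of the test. Genes that were called and at least 2-fold higher numbered 715 (4.9% of those tested), and 602 (4.12%) were called and at least 2-fold lower. Called genes at least 4-fold higher numbered 193 (1.32%) and at least 4-fold lower 95 (0.651%). The lowest testosterone library lay above the highest vehicle library in 1858 genes (12.7%), and the reverse held in 1595 (10.9%). Calls were more frequent among abundant genes. Among the 77 genes whose mean reached 10000 normalized counts, 38 rose (49.4%) and 7 fell (9.09%), and among the 4401 with a mean under 100, 499 rose (11.3%) and 594 fell (13.5%). Protein-coding genes made up 85.8% of the genes tested, 88.1% of these 4-fold rises and 80% of these 4-fold falls, and long noncoding RNAs 3.9%, 6.74% and 9.47%.

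**Figure D1:**
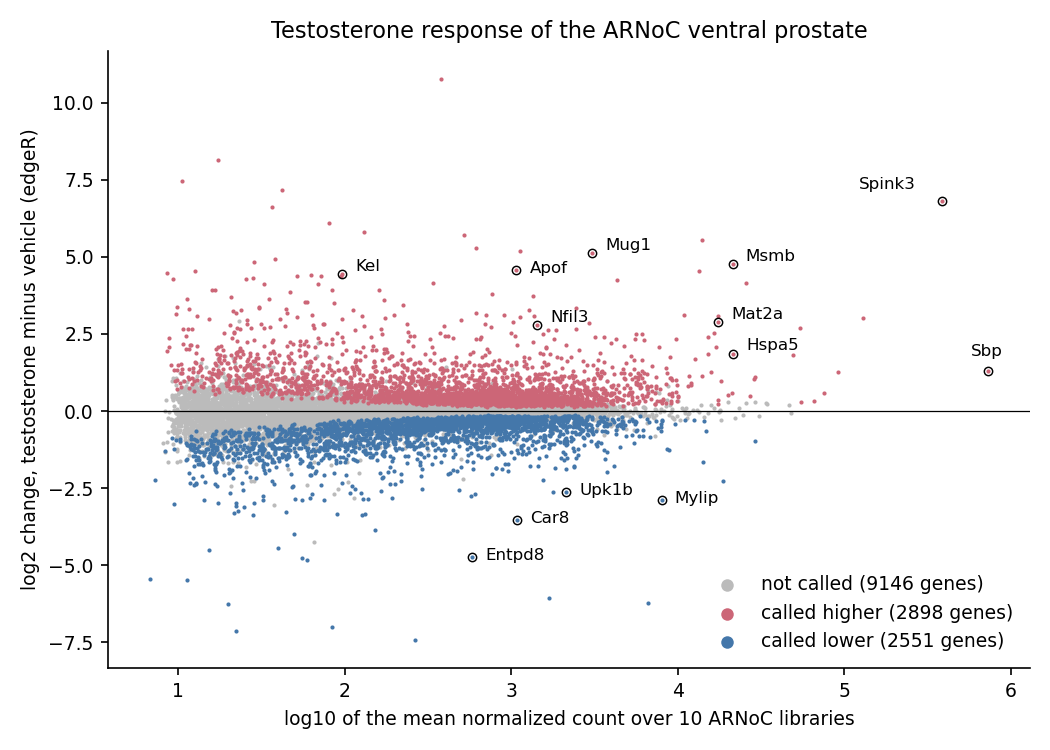
Each point is 1 of the 14595 genes, with the log10 of its mean normalized count over the 10 ARNoC libraries on the x axis and edgeR's log2 change (testosterone minus vehicle) on the y axis. The 2898 genes called higher and the 2551 called lower are coloured, and circled genes are described in the text, among them Sbp and Spink3 at the abundant end.

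The secreted proteins of the gland accounted for the largest rises by abundance. The share of all counts taken by Sbp, the spermine-binding protein, went from 4.01% with vehicle to 7.76% with testosterone, and that of Spink3, a secreted protease inhibitor, from 0.0642% to 5.76%. The transcript 9530002B09Rik went from 0.269% to 1.73%. Sbp stood at 382241, 455894, 350894, 300808 and 632931 normalized counts with vehicle and at 1034196, 1221719, 1057903, 803372 and 1060853 with testosterone. The groups did not overlap, although vehicle library 5 was well above the other vehicle libraries. Sbp rose 2.44-fold (log2 1.29 ± 0.19 SE, adjusted p 2.04e-05). Its close relative Sbpl rose 2.39-fold, and reads could be divided between these similar genes. Spink5, another protease inhibitor, rose 3.50-fold, from 21897 ± 4361 (SD, n = 5) to 76589 ± 16558.

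Several secretory genes went from low to high levels in every library. Msmb encodes microseminoprotein beta, a major secreted protein of the prostate. It is also on the list of markers of other prostate lobes, as are Apof and 9530002B09Rik. It stood at 2491, 1506, 1952, 503 and 1038 with vehicle and at 47895, 53473, 26345, 34036 and 44407 with testosterone, with no overlap, and rose 27.5-fold (log2 4.78 ± 0.54 SE, adjusted p 8.01e-07). Wfdc3, of the whey acidic protein family, stood at 2143, 1222, 1258, 399.6 and 543 and then at 27042, 36418, 33895, 16039 and 16018. Its vehicle libraries spread widely, with library 1 highest and library 4 lowest, and all testosterone libraries were above them (23.3-fold, adjusted p 1.62e-07). Apof, which encodes apolipoprotein F, rose 23.9-fold, from 60.4–120.3 to 1440.4–2655. Timp4, an inhibitor of matrix metalloproteinases, rose 10.2-fold, from 309.6–552 to 3733–4822. Of 22 tested members of the list of ventral prostate secretory products (33 in all), 16 rose and 1 fell, against 19.9% and 17.5% of all genes, and the median log2 change was 1.94 against -0.00905. The member that fell was Wfdc2 (1.88-fold lower, from 232–815 to 157–389), whose groups overlapped. Its call was lost without vehicle library 4 or 5 or testosterone library 1 or 5, with log2 values of -0.88 to -0.67. Pigr, the epithelial receptor that carries immunoglobulin A into secretions, was abundant in both groups and was not called (log2 0.19, adjusted p 0.502).

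Outside the secretory list, the largest rises included a protease inhibitor, a blood group enzyme and noncoding RNAs. Mug1, a murinoglobulin of the alpha-2-macroglobulin family (chromosome 6, 121838541 to 121889057, build mm10), stood at 177, 227, 224, 113 and 103 with vehicle and at 6603, 6814, 9412, 2742 and 4397 with testosterone. Every testosterone library was at 2742 or more, and no vehicle library was above 227. Mug1 rose 35.2-fold (log2 5.14 ± 0.35 SE, adjusted p 7.52e-10), and a near-identical relative could share its reads. Kel, which encodes the Kell blood group protein, a membrane metallopeptidase (chromosome 6, 41686330 to 41704339), stood at 8.63, 8.23, 9.88, 4.18 and 10.2 and then at 179.6, 195, 187, 209 and 154. Its groups were far apart and its testosterone libraries lay close together (22.0-fold, adjusted p 1.1e-11). The antisense RNA Rapgef4os3 rose 52.2-fold, from 16.5–23.6 to 604–1419. The sources used here do not say whether the counting used strand, so its reads cannot be told apart from those of a gene on the opposite strand. The long noncoding RNA D030018L15Rik rose 36.2-fold, from 30.2–102 to 807–3027, and RP24-170O7.1 rose 21.5-fold, from 1.85–9.50 to 48.0–181. RP24-170O7.1 passed the filter through the testosterone group alone.

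The largest falls included an ectonucleotidase, a carbonic anhydrase relative and a ubiquitin ligase. Entpd8, which encodes an enzyme that removes phosphates from nucleotides outside the cell (chromosome 2, 25080304 to 25085716), stood at 1242, 1216, 1029, 1302 and 828 with vehicle and at 42.5, 50.3, 46.8, 37.2 and 34.4 with testosterone. No testosterone library was above 50.3, and no vehicle library was under 828. Entpd8 fell 26.6-fold (log2 -4.74 ± 0.24 SE, adjusted p 9.67e-12). Car8, a carbonic anhydrase relative that lacks the enzyme activity, stood at 1677, 2421, 1469, 2533 and 1829.8 and then at 153, 220.1, 151, 175 and 160.2, again with no overlap (11.5-fold lower, adjusted p 3.96e-12). Mylip, which encodes the ubiquitin ligase (chromosome 13, 45389742 to 45412022), stood at 15428, 12539, 14827, 12409 and 15294 and then at 2259, 1871, 1307, 1618 and 2515. It was high in both groups, which did not overlap (7.37-fold lower, log2 -2.88 ± 0.16 SE, adjusted p 4.02e-11). The monocarboxylate transporter relative Slc16a11 fell 7.31-fold, from 156–321 to 23.4–49.2, and the chemokine gene Cxcl15 fell 67.5-fold, from 1959.7–6902 to 33.0–72.4. Cadps, which primes vesicles for release, fell 27.2-fold, from 44.4–208 to 1.06–10.7 (log2 -4.77, or -5.47 without testosterone library 5). Clca2 fell 28.4-fold, from 19.0–276 to 2.13–7.03 (log2 -4.83, or -4.22 without vehicle library 4), and it passed the filter through the vehicle group alone.

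Vehicle library 5 largely set the size of a pair of falls. Ly6d, a marker of progenitor-like luminal cells, stood at 51.0, 67.8, 44.8, 60.7 and 594 with vehicle and at 12.8, 17.6, 17.6, 15.6 and 16.6 with testosterone. Gsdmc2, a gasdermin gene with similar neighbours that could share its reads, stood at 62.5, 66.5, 111, 187 and 777 and then at 19.1, 25.8, 15.2, 31.2 and 26.1. In both genes vehicle library 5 was several times above the other vehicle libraries, and the groups still did not overlap. Without that library Ly6d changed by -1.80 in place of -3.34 on the log2 scale and lost its call, and Gsdmc2 changed by -2.14 in place of -3.33. With all libraries, both calls were lost in an alternative test, limma-voom (adjusted p 0.0769 for Ly6d and 0.0574 for Gsdmc2).

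**Figure D2:**
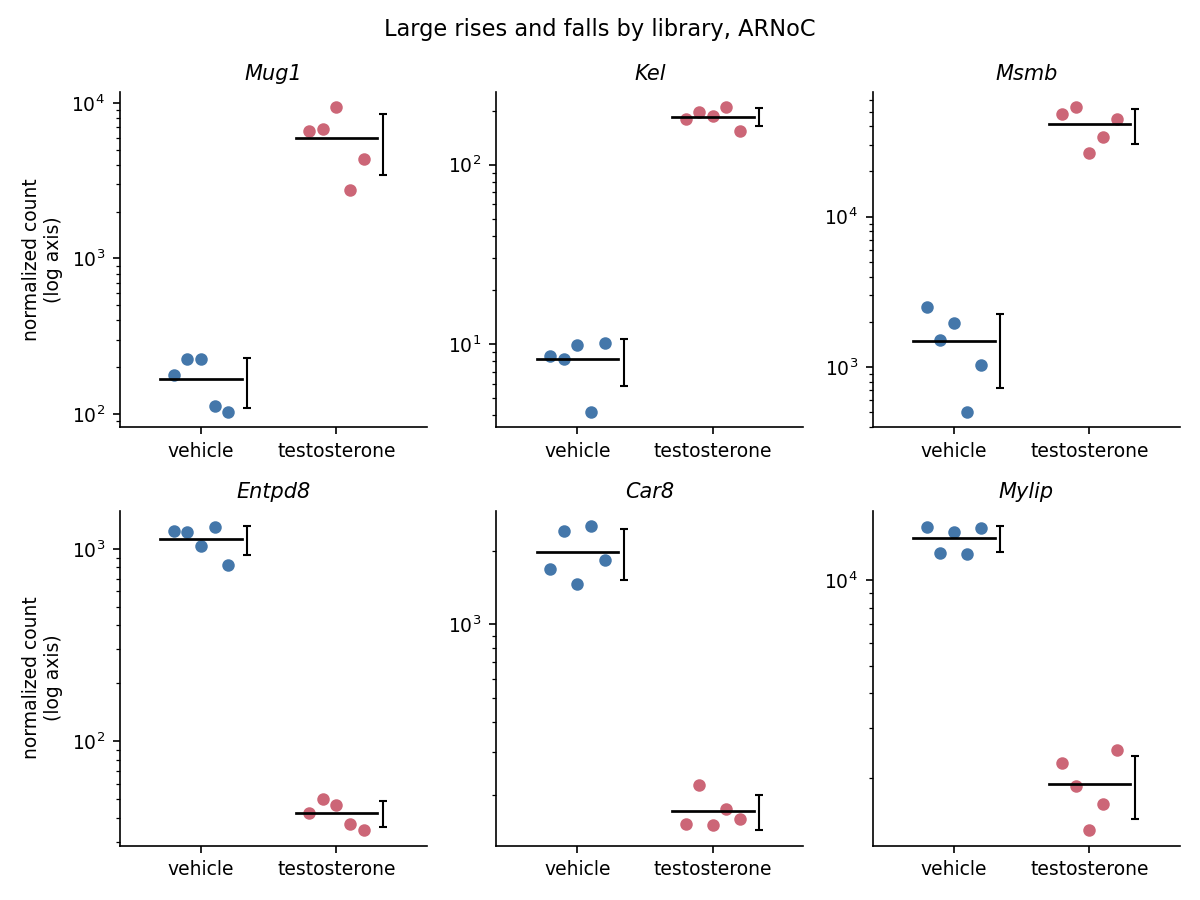
Normalized counts on a log axis for 3 genes that rose and 3 that fell, with 1 point per ARNoC library in the order 1 to 5, the group mean as a line and the SD as an error bar. In each gene the 5 vehicle and the 5 testosterone libraries do not overlap.

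Genes known to be induced by androgen moved in both directions. Of 30 androgen-induced regulators, all tested, 16 rose and 3 fell (12 and 9 under total-count scaling), and the median log2 change was 0.37. Mme, the membrane peptidase neprilysin, stood at 4506, 4831, 4045, 4995 and 5957 with vehicle and at 25139.9, 27683, 18750.4, 38257 and 32189 with testosterone. No library of one group came near the other (5.84-fold higher, log2 2.55 ± 0.17 SE, adjusted p 7.9e-10). Zbtb16, a zinc finger regulator also known as PLZF, stood at 298, 354, 300.2, 269.9 and 312 and then at 1219, 1247, 967, 1239 and 1148, and rose 3.79-fold (adjusted p 3.58e-12). Sgk1, a kinase that acts on ion channels, rose 6.16-fold, from 519 ± 129 to 3192 ± 867. Creb3l4, a membrane-bound transcription factor of secretory cells, rose 4.15-fold, from 628 ± 136 to 2608 ± 432, and the homeobox gene Hoxb13 rose 2.10-fold, from 4597–6258 to 10204–15617. The lipid enzyme genes Acsl3 (1.44-fold) and Elovl7 (1.40-fold) fell. Ndrg1 (log2 -0.47), Camkk2 (-0.10) and the pioneer factor gene Foxa1 (-0.07) were not called. The letters of the androgen response element were searched in promoter windows, which are defined below. They were in 1 of the 38 windows that belonged to 22 of these regulators (2.63%), that of Sgk1. Among secretory products they were in 0 of 22 windows, of 16 genes, against 156 of all 32851 windows (0.475%). With so low a share, these windows are too few to show an excess or a lack.

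Most of the machinery that folds secreted proteins in the endoplasmic reticulum (ER) rose. Of 38 tested ER chaperones and disulfide enzymes (45 in the list), 29 rose and 1 fell (24 and 5 under total-count scaling), and the median log2 change was 0.93. Several of its members are known to be controlled by a promoter element to which NF-Y and ATF6 bind, the ER stress response element, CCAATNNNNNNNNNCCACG. The letters of this element were searched on both strands of RefSeq promoter windows (GRCm38.p6) that run from 250 bases before to 50 after each start. They were in 8 of the 43 windows that belonged to 33 of the 38 genes (18.6%) and in 39 of all 32851 windows (0.119%). The 8 genes were Calr, Canx, Creld2, Dnajc3, Ero1lb, Hsp90b1, Hspa5 and Pdia6. All of these rose, with a median log2 change of 1.47, while 16 of the 25 genes whose windows lacked the letters rose, with a median of 0.66. A match is a description and not a shown binding site. The 250 bases before the start are printed for 4 of these genes, because these genes rose together at similar size. Sequences run 5′ to 3′ on the strand of the gene, and capitals mark the element or its reverse complement. Hspa5 is at chr2:34771840-34772089 on the plus strand, Calr at chr8:84846932-84847181 on the minus strand, Pdia6 at chr12:17266339-17266588 on the plus strand and Creld2 at chr15:88819396-88819645 on the plus strand.
Hspa5: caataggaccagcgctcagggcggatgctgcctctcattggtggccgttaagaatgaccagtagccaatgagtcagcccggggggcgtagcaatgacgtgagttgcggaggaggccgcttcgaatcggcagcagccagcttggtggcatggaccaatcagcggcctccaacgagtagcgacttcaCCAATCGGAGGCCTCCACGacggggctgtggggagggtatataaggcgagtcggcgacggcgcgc
Calr: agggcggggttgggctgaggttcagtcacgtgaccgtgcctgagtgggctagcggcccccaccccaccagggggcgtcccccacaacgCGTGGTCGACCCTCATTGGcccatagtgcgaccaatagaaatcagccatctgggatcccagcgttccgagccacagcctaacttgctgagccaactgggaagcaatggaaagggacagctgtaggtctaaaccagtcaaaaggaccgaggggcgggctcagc
Pdia6: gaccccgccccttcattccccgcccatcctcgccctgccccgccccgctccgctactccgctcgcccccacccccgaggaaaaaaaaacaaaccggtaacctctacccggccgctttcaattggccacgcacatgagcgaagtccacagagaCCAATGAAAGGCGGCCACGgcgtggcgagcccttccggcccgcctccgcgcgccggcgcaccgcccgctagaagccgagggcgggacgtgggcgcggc
Creld2: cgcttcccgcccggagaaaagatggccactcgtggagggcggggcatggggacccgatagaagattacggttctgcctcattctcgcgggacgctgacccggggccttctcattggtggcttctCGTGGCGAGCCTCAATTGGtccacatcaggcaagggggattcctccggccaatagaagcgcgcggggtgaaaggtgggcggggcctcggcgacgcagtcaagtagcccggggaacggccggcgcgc

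The capitals begin 65 bases before the start in Hspa5, 162 in Calr, 98 in Pdia6 and 126 in Creld2. Hspa5, which encodes the main ER chaperone BiP, stood at 8705, 13024, 9026, 7174 and 8767 with vehicle and at 23977, 37666, 44875, 29095 and 34142 with testosterone. Calr, the calcium-binding chaperone calreticulin of glycoproteins, stood at 5758, 8076, 6670.2, 5689.8 and 6663 and then at 22460.3, 28347, 21130.1, 22755 and 24059.7. The groups were far apart in both genes, with rises of 3.64-fold (log2 1.87 ± 0.20 SE, adjusted p 4.92e-07) and 3.62-fold (log2 1.86 ± 0.13 SE, adjusted p 1.43e-09). The disulfide isomerase gene Pdia6 rose 3.23-fold, from 6004 ± 914 to 19362 ± 3172, and Creld2 rose 3.58-fold, from 682 ± 169.5 to 2445 ± 571. Higher still were the rises of Fkbp11, a prolyl isomerase of secretory cells (5.12-fold, from 146 ± 30.0 to 754 ± 200.1), and of Sdf2l1 (4.42-fold). Pdia5 (3.13-fold), Manf (3.06-fold), Hyou1 (2.93-fold) and the peroxiredoxin Prdx4 (2.79-fold), which passes oxidation to disulfide enzymes, also rose. Sensors and regulators of the unfolded protein response moved little. Atf6 was called higher by a log2 change of 0.22, less than the shift between the scalings, and Xbp1 (log2 0.14) and Ern1 (-0.16) were not called. Qsox1, a sulfhydryl oxidase of the secretory route, was called lower (1.39-fold, overlapping groups), a call lost without vehicle library 2, 3 or 5 or testosterone library 4 (log2 -0.46 to -0.42).

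The steps before and after folding rose too, by smaller amounts. Of 24 tested genes of ER translocation and signal peptide processing, 20 rose and none fell (13 and 3 under total-count scaling), with a median log2 change of 0.55. Ssr4, a subunit of the translocon-associated complex, stood at 1633, 2047, 1822, 1503 and 1961 with vehicle and at 5087, 6423, 4207, 5696 and 5553 with testosterone and rose 3.01-fold (adjusted p 7.53e-09). Sec11c, a catalytic subunit of the signal peptidase, rose 2.33-fold, from 2081–3329 to 5396–7272. Of 39 genes of N-glycan assembly and transfer, 28 rose and none fell (17 and 9 under total-count scaling), with a median of 0.44. The largest rise in this list was that of Man1a, a Golgi mannosidase that trims glycans (3.96-fold, from 768–1183 to 3599–4497). Stt3b, a catalytic subunit of the oligosaccharyltransferase, rose 2.41-fold, while Stt3a, which encodes the alternative catalytic subunit, rose 1.34-fold.

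Most genes of transport between the ER and the Golgi rose. Of 43 tested genes for COPII, COPI and cargo receptors, 39 rose and 2 fell (24 and 4 under total-count scaling), with a median log2 change of 0.56. Uso1, the tether p115 that docks vesicles at the Golgi, stood at 3091, 3509.7, 2848, 2570.3 and 3173 with vehicle and at 6974, 7938, 8044, 7815 and 8369 with testosterone, with no overlap (2.58-fold higher, log2 1.37 ± 0.09 SE, adjusted p 6.57e-10). Copb2, a subunit of the COPI coat, rose 1.91-fold, and Lman1, a receptor that carries glycoproteins out of the ER, rose 1.88-fold. The paralogs of the COPII cargo adaptor split: Sec24d (2.16-fold) and Sec24a (1.61-fold) rose, while Sec24b fell 1.24-fold, from 720.4–823 to 589–659. Mia2 fell 1.91-fold, from 108–213 to 59.5–98.4. No window of this list held the ER stress response element (0 of 44 windows, of 37 genes, against 0.119% of all windows). With so low a share, 44 windows are too few to show a lack of it.

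Release at the cell surface showed no common direction. Of 23 tested genes of regulated exocytosis, 7 rose and 3 fell (median log2 0.12), and under total-count scaling 3 rose and 11 fell. The 7 and 3 were 30.4% and 13% of the list, against 19.9% and 17.5% of all genes. Stx3, a syntaxin of the apical membrane, rose 2.63-fold, from 574–839.7 to 1483–2023. The related small GTPases Rab27a and Rab27b moved apart: Rab27a rose 1.54-fold, from 533–735 to 781–1051, and Rab27b fell 1.68-fold, from 3000.0–4202 to 1649–2546. The Rab27 effector gene Sytl4 fell 1.52-fold. Syt10, a synaptotagmin, was at 0–3.80 with vehicle and at 36.8–66.7 with testosterone (28.4-fold higher, adjusted p 2e-07), and it passed the filter through the testosterone group alone.

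Genes of amino acid supply rose with the secretory machinery, and stress markers of the same response did not. Cells short of amino acids, or under ER stress, are known to raise such genes through ATF4, which binds the C/EBP-ATF response element with the letters TGATGNAA. Of 28 genes of the integrated stress response and amino acid supply, 17 rose and 1 fell (12 and 5 under total-count scaling), with a median log2 change of 0.49. The letters were in 8 of the 28 windows that belonged to 25 of these genes (28.6%) and in 1304 of all windows (3.97%), searched on both strands. Of the 8 genes with a match, Asns, Pycr1, Slc1a4 and Slc7a11 rose, Trib3 fell, and Chac1, Nupr1 and Vldlr were not called. Of the 17 genes without a match, 10 rose. The 250 bases before the start are printed for a pair of enzymes that rose, Asns at chr6:7693210-7693459 and Pycr1 at chr11:120643749-120643998, both on the minus strand, to show where the letters (in capitals) lie: 23 and 103 bases before the start.
Asns: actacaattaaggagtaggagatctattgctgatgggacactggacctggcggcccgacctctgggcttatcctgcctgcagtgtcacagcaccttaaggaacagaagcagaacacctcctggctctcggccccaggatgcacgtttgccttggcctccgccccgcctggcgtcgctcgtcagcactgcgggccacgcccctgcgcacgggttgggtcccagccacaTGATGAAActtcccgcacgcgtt
Pycr1: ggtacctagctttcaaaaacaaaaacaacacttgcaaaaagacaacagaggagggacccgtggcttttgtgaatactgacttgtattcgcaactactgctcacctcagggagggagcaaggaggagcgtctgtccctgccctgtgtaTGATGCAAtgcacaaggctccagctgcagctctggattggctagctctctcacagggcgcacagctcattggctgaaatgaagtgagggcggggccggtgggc

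Asns makes asparagine, and Pycr1 makes proline. Asns rose 1.74-fold, from 792 ± 144 to 1376 ± 154, and Pycr1 rose 2.98-fold, from 535 ± 128 to 1597 ± 422. The largest rise of the list was that of Mthfd2, the mitochondrial folate enzyme, which stood at 41.7, 31.7, 47.1, 42.9 and 40.7 with vehicle and at 335, 369, 339.6, 412 and 320.5 with testosterone. No library of one group came near the other (8.73-fold higher, log2 3.13 ± 0.17 SE, adjusted p 3.28e-11). In the serine pathway Phgdh rose 2.85-fold and Psat1 2.96-fold. Ddit4, an inhibitor of the growth kinase mTORC1, rose 3.77-fold, from 201–274 to 632–1199.9. Atf4 itself rose 1.33-fold. The stress markers Ddit3 (log2 -0.34) and Ppp1r15a (0.01) were not called. Trib3 was called lower (1.49-fold, from 63.8–87.0 to 30.8–59.3), and this call was lost without vehicle library 2 (log2 -0.55) or 5 (-0.50). Of 20 genes of tRNA charging, 13 rose and none fell, with small changes (median log2 0.26), led by Aars and Gars (log2 0.60 and 0.59), which attach alanine and glycine. Under total-count scaling 2 of these rose and 6 fell, and the median was -0.08 against -0.351 for all genes.

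Enzymes that feed polyamine synthesis rose, and an enzyme that removes polyamines fell. The prostate is known for a high content of spermine, which is made from ornithine and decarboxylated S-adenosylmethionine. Mat2a, which makes S-adenosylmethionine, stood at 3622, 4436, 3449, 3536 and 6031 with vehicle and at 31861, 33761, 30362, 30659.9 and 27824 with testosterone. The groups lay far apart (7.34-fold higher, log2 2.88 ± 0.16 SE, adjusted p 5.7e-11). Arg2, which makes ornithine, rose 2.90-fold, from 779–932 to 2085–3068, and Srm (spermidine synthase, 2.79-fold), Ahcy (2.39-fold) and Amd1 (1.91-fold) also rose. Sms, the spermine synthase, fell 1.48-fold, from 239–313 to 149.9–196. Sat1, which acetylates polyamines for export and breakdown, stood at 3546, 2282, 2802, 3516 and 3535 and then at 1281, 1021, 1189, 863 and 826, and fell 3.02-fold (adjusted p 5.53e-08). Over the 18 tested genes of the list 8 rose and 3 fell (median log2 0.16), and under total-count scaling 6 rose and 8 fell.

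Most cholesterol genes rose, while fatty acid genes were called about as often as all genes. Of 24 tested genes of cholesterol synthesis and sterol uptake, 21 rose and 1 fell (median log2 0.67), and under total-count scaling 13 rose and 2 fell. The letters of the sterol regulatory element were in 1 of the 21 windows that belonged to 17 of these genes (4.76%), that of Hmgcs1. They were in 408 of all windows (1.24%), so 21 windows are too few to show an excess. Cyp51, a demethylase of the sterol ring, rose 2.66-fold, from 236–312 to 543–1039.6. Tm7sf2, a sterol reductase, rose 2.99-fold, from 109.8–157 to 353–496. Scap, the sensor that escorts the sterol-regulated transcription factors, rose 1.98-fold, and its retention partner Insig1 rose 2.60-fold. Stard4, a cholesterol carrier of the cytosol, fell 1.60-fold, from 1084–1346 to 605–1041. Of 24 tested genes of fatty acid and glycerolipid synthesis, 6 rose and 2 fell (25% and 8.33%, against 19.9% and 17.5% of all genes; 2 and 5 under total-count scaling). Scd2, a desaturase, rose 1.96-fold, from 10349–14337 to 22045–26558, and Acsl4, which activates polyunsaturated fatty acids, rose 2.70-fold. The fatty acid synthase gene Fasn (log2 0.96, adjusted p 0.0642) and Scd1 (0.81, adjusted p 0.157) were not called.

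Zinc transporters moved in opposite directions. The prostate is known to collect zinc and to secrete citrate. Of 24 tested genes of zinc and citrate handling, 17 rose and 4 fell (median log2 0.42), and under total-count scaling 11 rose and 8 fell. The 17 and 4 were 70.8% and 16.7% of the list, against 19.9% and 17.5% of all genes. Among the zinc importers of the plasma membrane, Slc39a6 stood at 426, 502, 434, 437 and 526 with vehicle and at 1144, 1503, 1025, 1078 and 1346 with testosterone (2.62-fold higher, adjusted p 9.74e-07). Its partner Slc39a10 rose 2.47-fold. Slc39a8, another importer, fell 3.43-fold, from 1513–2763 to 433–692, with no overlap. Slc30a10, an exporter of manganese, rose 7.97-fold, from 21.1 ± 9.20 to 171 ± 62.1, and the zinc-buffering metallothioneins Mt1 (2.30-fold) and Mt2 (2.76-fold) rose. Idh1, an enzyme that uses isocitrate, fell 1.79-fold.

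Ion transporters of the secretory epithelium gave 12 rises and 5 falls among 26 tested genes of ion and water transport. The median log2 change was 0.40, or 0.23 without testosterone library 3, and total-count scaling gave 8 rises and 9 falls. The 12 and 5 were 46.2% and 19.2% of the list, against 19.9% and 17.5% of all genes. Slc12a2, the cotransporter that loads chloride for secretion, was among the most abundant transcripts of both groups and rose 1.49-fold, from 54095–67223 to 75958–104584. Atp1b1, a subunit of the sodium pump, rose 2.02-fold, from 5969–7034 to 11675–14195. Subunits of the epithelial sodium channel moved apart: Scnn1a rose 2.35-fold, from 229 ± 68.4 to 537 ± 140.0, Scnn1g fell 2.10-fold, from 74.7–148 to 48.0–53.4, and Scnn1b was not called (log2 -0.09).

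Called genes of the respiratory chain and of glycolysis mostly rose. Under total-count scaling, where the median of all genes was lower too, falls outnumbered rises. Of 43 genes of the respiratory chain and ATP synthase, 14 rose and 1 fell, with a median log2 change of 0.14. The 14 and 1 were 32.6% and 2.33% of the list, against 19.9% and 17.5% of all genes. Under total-count scaling 5 rose and 20 fell, with a median of -0.20 against -0.351 for all genes. Relative to the median of all genes, the list median was 0.151 with TMM and 0.146 with total counts. Ndufa1, a small subunit of complex I, stood at 450.0, 495, 442, 449.8 and 499 with vehicle and at 1279, 1647, 1276, 1322 and 1526 with testosterone, with no overlap (3.02-fold higher, log2 1.60 ± 0.09 SE, adjusted p 8.83e-11). The other complex I subunits in the list lay between -0.10 (Ndufs3) and 0.43 (Ndufa4) on the log2 scale. Uqcrq, a subunit of complex III, rose from 287–498 to 478–967 (adjusted p 0.000478). The complex II subunit Sdha fell 1.15-fold, from 4728–5294 to 4119–4556. Of 24 genes of glycolysis 8 rose and none fell (median log2 0.12), and under total-count scaling 4 rose and 7 fell. The 8 rises were 33.3% of the glycolysis list, against 19.9% of all genes. Pgk1 rose 2.44-fold, from 197–251 to 385–752, and the hexokinase gene Hk2 rose 1.68-fold, from 1097–1497 to 1769–2449. The largest fitted rise of that list was that of G6pc2, a glucose-6-phosphatase relative. It had 4 counts over the 5 vehicle libraries, all in library 1, stood at 38.6–99.7 with testosterone (adjusted p 5.27e-06), and passed the filter through the testosterone group alone.

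Genes of cell division rose unevenly across libraries. Of 41 tested genes of S phase and DNA replication, 17 rose and 2 fell (12 and 8 under total-count scaling), with a median log2 change of 0.54. The 17 and 2 were 41.5% and 4.88% of the list, against 19.9% and 17.5% of all genes. Without testosterone library 4, 10 rose and 4 fell. E2f1, a transcription factor that drives entry into S phase, stood at 42.4, 32.9, 20.5, 35.6 and 29.6 with vehicle and at 148, 217, 162, 257 and 210.1 with testosterone. All testosterone libraries were above all vehicle libraries (6.16-fold higher, log2 2.62 ± 0.26 SE, adjusted p 1.27e-07). Rrm2, which makes deoxynucleotides, stood at 53.9, 53.8, 39.5, 48.1 and 60.2 and then at 160.5, 248, 354, 521 and 138 (5.59-fold higher), with testosterone libraries 3 and 4 highest. The helicase subunit Mcm6 fell 1.76-fold, from 706–952 to 286–760.0, while its partners Mcm5 (2.33-fold) and Mcm2 (1.64-fold) rose.

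Of 41 tested genes of G2 and mitosis, 18 rose and none fell, with a median log2 change of 1.37, and this count depended on single libraries. Without testosterone library 4 only 4 were called, with a median of 0.77. Without testosterone library 5, 29 were called, and without library 1, 28. Without vehicle library 2, 3 or 5 or testosterone library 3, 7 or 8 were called, total-count scaling gave 8, and a fit of the 10 ARNoC libraries alone gave 11. Summed over the list, testosterone libraries 1 to 5 stood at 1920, 3021, 4697, 7269 and 1645 normalized counts, and the vehicle libraries between 1247 and 2365. Libraries 1 and 5 thus lay within the vehicle range, while libraries 2, 3 and 4 lay above it. Spc25, a kinetochore subunit, did not show this spread: it stood at 61.8, 32.3, 53.2, 31.4 and 52.8 with vehicle and at 232, 281, 224, 244 and 234 with testosterone, with no overlap (5.23-fold higher, log2 2.39 ± 0.20 SE, adjusted p 1.22e-08). The mitotic kinase Cdk1 stood at 36.7, 29.8, 19.0, 39.8 and 16.7 and then at 36.1, 109, 176, 269 and 43.9, with overlapping groups (4.52-fold higher, adjusted p 0.00279). Ribosome biogenesis gave 8 rises and 4 falls among 39 tested genes (20.5% and 10.3%, against 19.9% and 17.5% of all genes; median log2 0.11; 2 and 17 under total-count scaling, and 3 to 5 rises without vehicle library 4 or testosterone library 2, 3 or 4). Npm1 (1.52-fold) and Ncl (1.29-fold), abundant proteins of the nucleolus, fell, and Surf6 rose 4.19-fold, from 571–692 to 2275–3115.

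**Figure D3:**
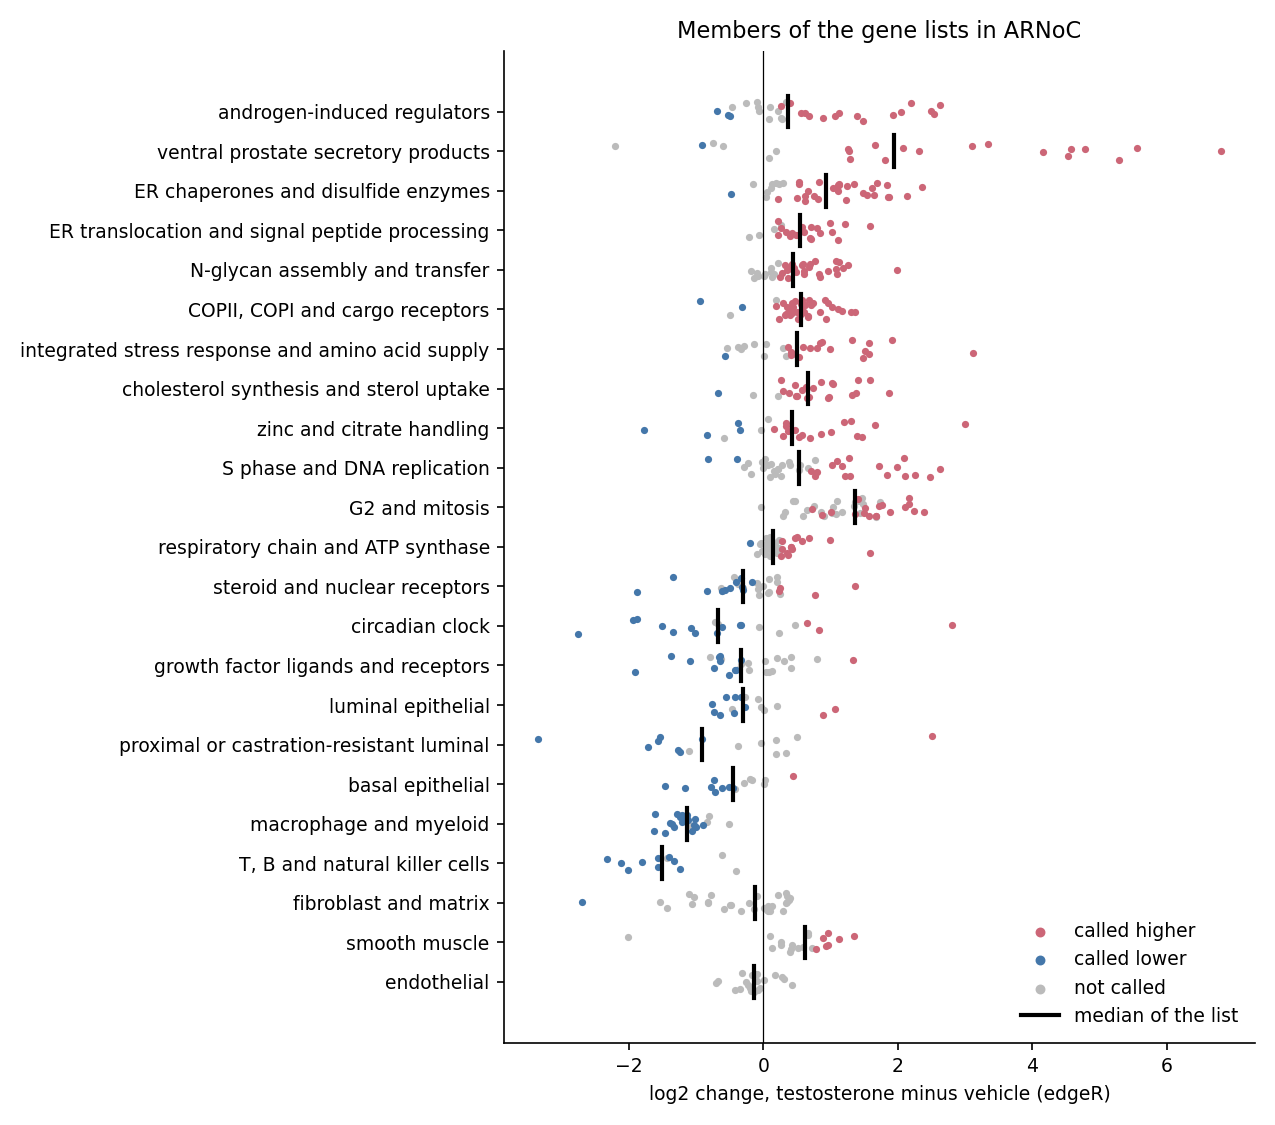
Log2 change (testosterone minus vehicle, edgeR) of every tested member of 23 gene lists, 1 point per gene, with the list median as a black bar. Points are coloured by call, and the medians run from 1.94 for secretory products to -1.50 for T, B and natural killer cells.

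Among genes linked to the regressed gland, falls outnumbered rises. Of 28 tested regression-linked genes, 12 fell and 4 rose (14 and 2 under total-count scaling), with a median log2 change of -0.22. The 12 and 4 were 42.9% and 14.3% of the list, against 17.5% and 19.9% of all genes. The median was -0.12 without vehicle library 1 and -0.37 without testosterone library 3. Sgpl1, which breaks down sphingosine 1-phosphate, stood at 4824, 5232, 5077, 3658 and 7959 with vehicle and at 2000.4, 2013, 1665, 2033 and 2980.5 with testosterone. Its highest library in each group was library 5, and the groups did not overlap (2.50-fold lower, adjusted p 2.89e-06). Tgfb2, a growth-inhibiting ligand, fell 2.23-fold, from 916–1241 to 309–553, and the pro-death gene Bcl2l11 fell 1.55-fold, from 358–403 to 218–260.4. Igfbp3, which binds insulin-like growth factors, fell 3.76-fold, from 709.7 ± 383 to 187 ± 31.7. The related Igfbp2 rose 6.63-fold, from 118–272 to 578–2041.

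Of 31 tested steroid and nuclear receptors and their coregulators, 11 fell and 4 rose (21 and 1 under total-count scaling), with a median log2 change of -0.30, or -0.15 without vehicle library 2. Esr1, estrogen receptor alpha, stood at 537, 512, 454, 609.9 and 452 with vehicle and at 277, 296, 290.4, 277 and 288 with testosterone and fell 1.79-fold (log2 -0.84 ± 0.08 SE, adjusted p 9.37e-08). The glucocorticoid receptor gene Nr3c1 fell 1.25-fold, and the mineralocorticoid receptor gene Nr3c2 fell 1.53-fold. The coactivator gene Ncoa4, also a receptor for ferritin breakdown, rose 2.57-fold, from 209–301 to 472–822. Of 13 tested enzymes of steroid synthesis and inactivation, 3 rose and 2 fell (2 and 7 under total-count scaling), shares near those of all genes. Sult1e1, the estrogen sulfotransferase, stood at 53.9, 44.3, 48.6, 73.2 and 4.63 and then at 186, 79.6, 521, 328 and 306 (6.35-fold higher, adjusted p 0.00234). Hsd11b2, which inactivates glucocorticoids, was low in both groups and rose 3.11-fold, from 6.47–16.7 to 20.4–48.0. Akr1c19, an aldo-keto reductase, was at 32.3–60.7 with vehicle and had 1 count over the 5 testosterone libraries, so it passed the filter through the vehicle group alone. The 5α-reductase genes Srd5a1 (log2 -0.31) and Srd5a2 (0.66) were not called.

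Most genes of the circadian clock changed. The clock is a loop in which CLOCK and ARNTL raise the Per, Cry and Nr1d genes, whose products in turn repress the loop, and these transcripts are known to vary over the day. Of 19 clock genes, 11 fell and 3 rose (median log2 -0.68). Nr1d1, the repressor REV-ERB alpha, stood at 2089.9, 1210.2, 1383, 1297 and 993 with vehicle and at 447, 302, 293, 353 and 496 with testosterone. Per3, a period gene, stood at 1942, 1866, 1043, 1476 and 1229.8 and then at 505, 356, 310.3, 447 and 339. All testosterone libraries were below all vehicle libraries in both genes, with falls of 3.69-fold (log2 -1.88 ± 0.21 SE, adjusted p 7.42e-07) and 3.84-fold (log2 -1.94 ± 0.19 SE, adjusted p 1.66e-07). Nr1d2 fell 2.53-fold, from 1006–1759.9 to 445–648, and Dbp, an output transcription factor, fell 6.73-fold, from 547–1651 to 96.0–203. Per2 (2.83-fold), Tef (2.11-fold) and Hlf (2.01-fold) fell as well. Nfil3, which binds the same sites as Dbp and represses there, stood at 258, 343, 524, 234 and 425 and then at 2303, 2861, 2772, 1945 and 2603 and rose 6.99-fold (log2 2.80 ± 0.18 SE, adjusted p 4.81e-10). Cry1 rose 1.56-fold, from 254–308 to 373–543. Per1 (log2 -0.07), Clock (0.23) and Arntl (0.46, adjusted p 0.198) were not called. The labels give no hour of tissue collection, so a difference in hour between the groups cannot be told apart from the treatment.

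**Figure D4:**
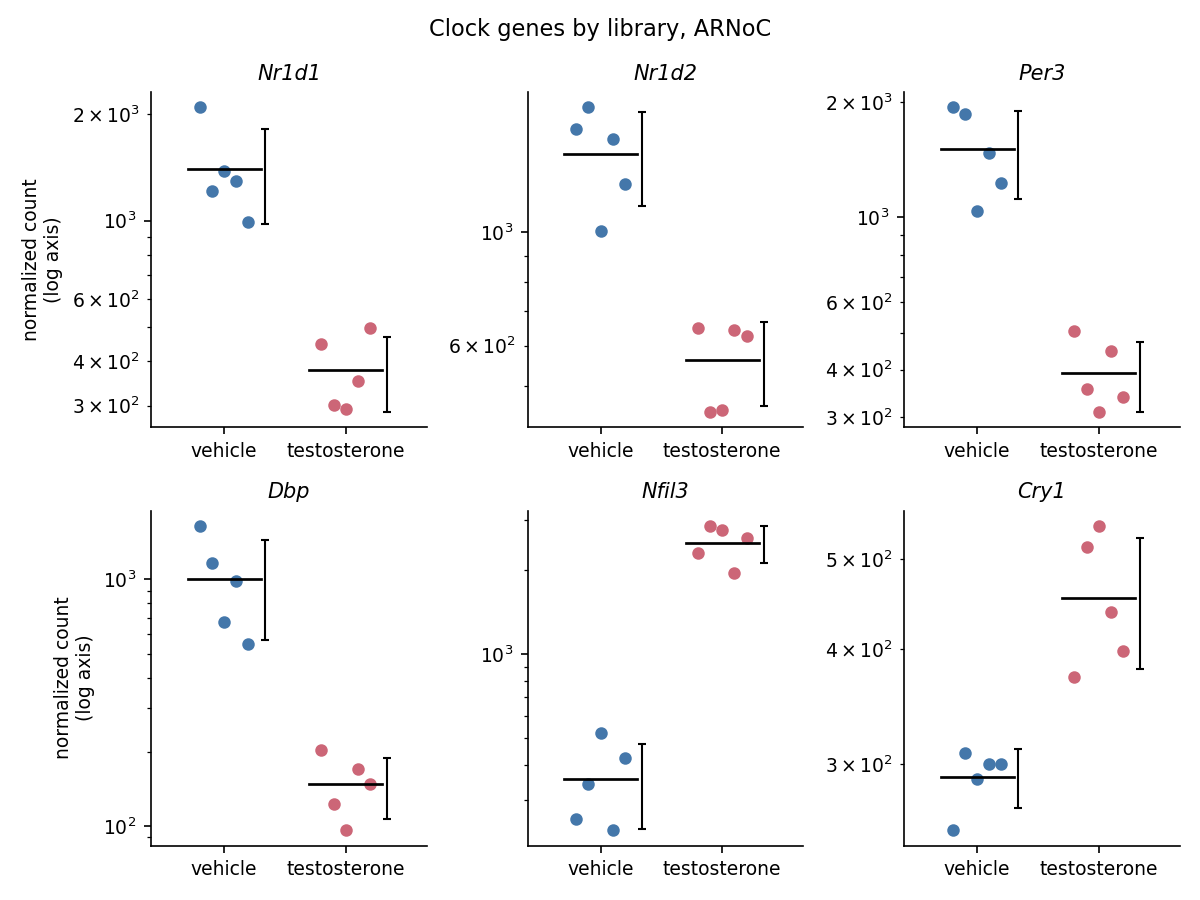
Normalized counts (log axis) of 6 clock genes with 1 point per ARNoC library in the order 1 to 5, the mean as a line and the SD as an error bar. Nr1d1, Nr1d2, Per3 and Dbp are lower with testosterone in every library, and Nfil3 and Cry1 are higher in every library.

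Signalling genes mostly fell where they were called. Of 27 tested growth factor ligands and receptors, 11 fell and 1 rose (median log2 -0.33), and without vehicle library 4, 8 fell (median -0.19). Met, the receptor of hepatocyte growth factor, stood at 716, 729.6, 639.9, 1212 and 860.3 with vehicle and at 274, 248, 321, 418 and 334 with testosterone and fell 2.59-fold (log2 -1.37 ± 0.16 SE, adjusted p 9.15e-07). Its ligand gene Hgf, known from stromal cells, fell 2.12-fold, from 43.7 ± 22.7 to 20.2 ± 9.69. The receptor genes Erbb2 (1.57-fold) and Fgfr2 (1.58-fold) also fell. Vegfa, the growth factor of blood vessels, was the gene that rose (2.51-fold, from 274–459 to 872–1079). Of 21 tested immediate-early genes, 5 fell and 2 rose (11 and 1 under total-count scaling), and 3 fell without vehicle library 1, 3 or 4 or testosterone library 1 or 4. The 5 and 2 were 23.8% and 9.52% of this list, against 17.5% and 19.9% of all genes. Fosl2 fell 2.86-fold, from 2788–3925 to 747–1743, with no overlap, and Fos fell 3.08-fold, from 141–437 to 46.8–199, with overlap. Btg2, an antiproliferative gene, rose 1.65-fold, from 1267–1693 to 2141–2602. Of 37 tested genes of Wnt, Notch and BMP signalling, 8 fell and 6 rose (13 and 4 under total-count scaling), shares near those of all genes. Notch1 fell 1.55-fold, from 705–901 to 410.3–605. The secreted Wnt inhibitor gene Sfrp4 stood at 250.2, 246, 161, 734 and 26.9 and then at 9.57, 15.2, 23.4, 12.6 and 38.0, with overlap through vehicle library 5 (14.5-fold lower, or -3.14 on the log2 scale without vehicle library 4). Bmp7 (1.87-fold), Wnt7b (1.77-fold) and the stem cell receptor gene Lgr5 (2.67-fold, from 87.0–176 to 199–447) rose.

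Epithelial markers gave more falls than rises. Of 16 luminal epithelial genes, 8 fell and 2 rose (13 and 2 under total-count scaling), with a median log2 change of -0.30. The 8 and 2 were 50% and 12.5% of the list, against 17.5% and 19.9% of all genes. Elf3, an epithelial transcription factor, stood at 1334, 1341, 1318, 1311 and 1398 with vehicle and at 809.9, 816, 714, 822 and 845 with testosterone and fell 1.67-fold (log2 -0.74 ± 0.07 SE, adjusted p 1.23e-07), with narrow spreads in both groups. The luminal keratins Krt8 (1.34-fold) and Krt18 (1.26-fold) fell. Spdef, a regulator of secretory cells, rose 1.84-fold. Of 15 basal epithelial genes, 8 fell and 1 rose (53.3% and 6.67%), with a median log2 change of -0.44. Under total-count scaling 11 of these fell and none rose. Col17a1, which anchors basal cells, fell 2.23-fold, from 137–283 to 81.9–112, and the basal keratin Krt5 fell 1.54-fold. Without vehicle library 4, 5 basal genes fell.

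Of 15 markers of proximal or castration-resistant luminal cells, which are known to persist without androgen, 7 fell and 1 rose (median log2 -0.91), or 6 and 2 without vehicle library 5. The 7 and 1 were 46.7% and 6.67% of the list, against 17.5% and 19.9% of all genes. Krt4 stood at 1209.9, 743, 1268, 2071 and 1718 with vehicle and at 480.4, 310.2, 437, 363 and 532 with testosterone and fell 3.30-fold (adjusted p 0.000206). Cyp2f2, a cytochrome P450 gene, fell 2.95-fold, from 3399–6417 to 1517–2541, and Ppp1r1b, which regulates protein phosphatase 1, fell 2.90-fold, from 1373–1733 to 396–662. Krt7, a keratin of the same cells, went the other way: it stood at 347, 348, 476, 259 and 888 and then at 3024, 3635, 3811, 1182 and 1567, with no overlap (5.71-fold higher, log2 2.51 ± 0.36 SE, adjusted p 1.66e-05). Psca, the prostate stem cell antigen gene, stood at 1.44, 0, 12.9, 3.14 and 468 and then at 45.7, 158, 261, 96.6 and 122. Vehicle library 5 was the highest of all libraries in Psca, while every other vehicle library was below every testosterone library. Psca (log2 0.50) and Ly6a (-0.03) were not called. Of 4 tested urothelial markers, Upk1b, a uroplakin of the bladder lining, fell 6.20-fold, from 3071–4639 to 417–662. The 7 urothelial markers summed to 9776–13314 with vehicle and to 4091–7183 with testosterone, with no overlap.

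Macrophage and lymphocyte genes fell. Of 24 tested macrophage and myeloid genes, 20 fell and none rose (median log2 -1.14), or 13 without vehicle library 4. Mpeg1, a pore-forming protein of phagocytes, stood at 726, 928, 679, 1199 and 560.2 with vehicle and at 254, 186, 309, 301 and 278 with testosterone and fell 3.06-fold (log2 -1.61 ± 0.25 SE, adjusted p 3.68e-05). Aif1, a macrophage marker, fell 3.09-fold, from 69.0–119 to 11.7–39.3. The summed macrophage list was lowest in vehicle library 5 (6337, against 13887 to 22189 in the other vehicle libraries), which overlapped with the testosterone libraries (4865 to 9058). Without that library 21 of the 24 genes fell. Of 12 tested genes of T, B and natural killer cells (24 in the list), 9 fell and none rose (median log2 -1.50), at low levels. At least 1 of the 9, Cd3e (14.4–28.2 with vehicle, 2.13–8.31 with testosterone), passed the filter through the vehicle group alone, so it had to fall. The T cell receptor subunit Cd3g stood at 30.9, 30.4, 38.0, 52.3 and 31.5 and then at 15.9, 7.02, 7.03, 10.8 and 10.7, with no overlap (3.48-fold lower, adjusted p 2.69e-05). Of 19 tested chemokine genes, 7 fell and none rose, and 11 fell without testosterone library 3. Cxcl17, a mucosal chemokine, fell 2.24-fold, from 1771–2677 to 782–1061, and Cxcl1 fell 9.45-fold, from 17.7–63.9 to 2.13–8.20. Cxcl1 and at least 1 other of the 7 chemokine genes that fell passed the filter through the vehicle group alone, so they had to fall.

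Class II antigen presentation genes fell, and the light chain shared by class I molecules rose. Over 37 genes of MHC and interferon, 9 fell and 8 rose (18 and 5 under total-count scaling), with a median log2 change of -0.00468, shares near those of all genes. The class II genes H2-Ab1 (2.33-fold, from 504–1432 to 356–475), H2-Eb1 (2.13-fold) and H2-Aa (2.17-fold), which are known from antigen-presenting cells, fell, as did their activator Ciita (3.20-fold). B2m, the light chain of class I molecules, stood at 4674, 4567, 4576, 5886 and 3909 with vehicle and at 13333, 13843, 10984, 11097 and 12438 with testosterone and rose 2.62-fold (log2 1.39 ± 0.12 SE, adjusted p 1.55e-08). The class I gene H2-K1 rose 1.41-fold, and H2-D1 was not called (log2 0.14). Reads of the similar H2 genes may have been divided among them. Interferon-induced genes moved in both directions. Mx1 rose 3.92-fold, from 36.7–92.0 to 180.4–328, Rsad2 rose 3.03-fold and Isg15 1.97-fold, while Ifit2 fell 1.99-fold and Irf1 fell 1.51-fold. Of 31 lysosome and phagosome genes, 13 rose and 12 fell (6 and 16 under total-count scaling), with a median log2 change of -0.07. The 13 and 12 were 41.9% and 38.7% of the list, against 19.9% and 17.5% of all genes. Npc2, which carries cholesterol out of lysosomes, rose 2.36-fold, from 2899.8–3692 to 7121–9936, the galactosidase gene Glb1 rose 2.30-fold, and the macrophage protease Ctss fell 2.31-fold. Of 19 tested complement genes 5 fell and 1 rose (26.3% and 5.26%, against 17.5% and 19.9% of all genes), and leaving out single ARNoC libraries gave 3 to 7 falls.

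Stromal markers spread widely between libraries and, outside smooth muscle, gave few calls. Of 30 fibroblast and matrix genes, 1 was called, Lum, the proteoglycan lumican, which stood at 1053, 897, 807, 2421 and 98.2 with vehicle and at 85.0, 110.0, 214, 193 and 202 with testosterone (6.50-fold lower, adjusted p 0.00536). Vehicle library 5 was the lowest of its group in Lum and in the summed list, which stood at 61526, 50388, 43658, 88412 and 14839 with vehicle and at 26652–62042 with testosterone. Without that library 7 of the 30 genes fell, and without testosterone library 5, 2 fell. Of 20 smooth muscle genes, 7 rose and none fell (median log2 0.63), 3 to 4 without vehicle library 1 or 5 or testosterone library 1, 3 or 5, and 1 under total-count scaling. The 7 rises were 35% of the list, against 19.9% of all genes. Actg2, the enteric actin of smooth muscle, stood at 442, 412, 572, 927 and 246 and then at 1319, 669.6, 2075, 1134 and 1385, with overlap (2.55-fold higher, log2 1.35 ± 0.34 SE, adjusted p 0.00341). None of the 21 tested endothelial genes and none of the 14 adipocyte genes was called by edgeR. The part of the low stromal sums of vehicle library 5 in other results was not tested.

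**Figure D5:**
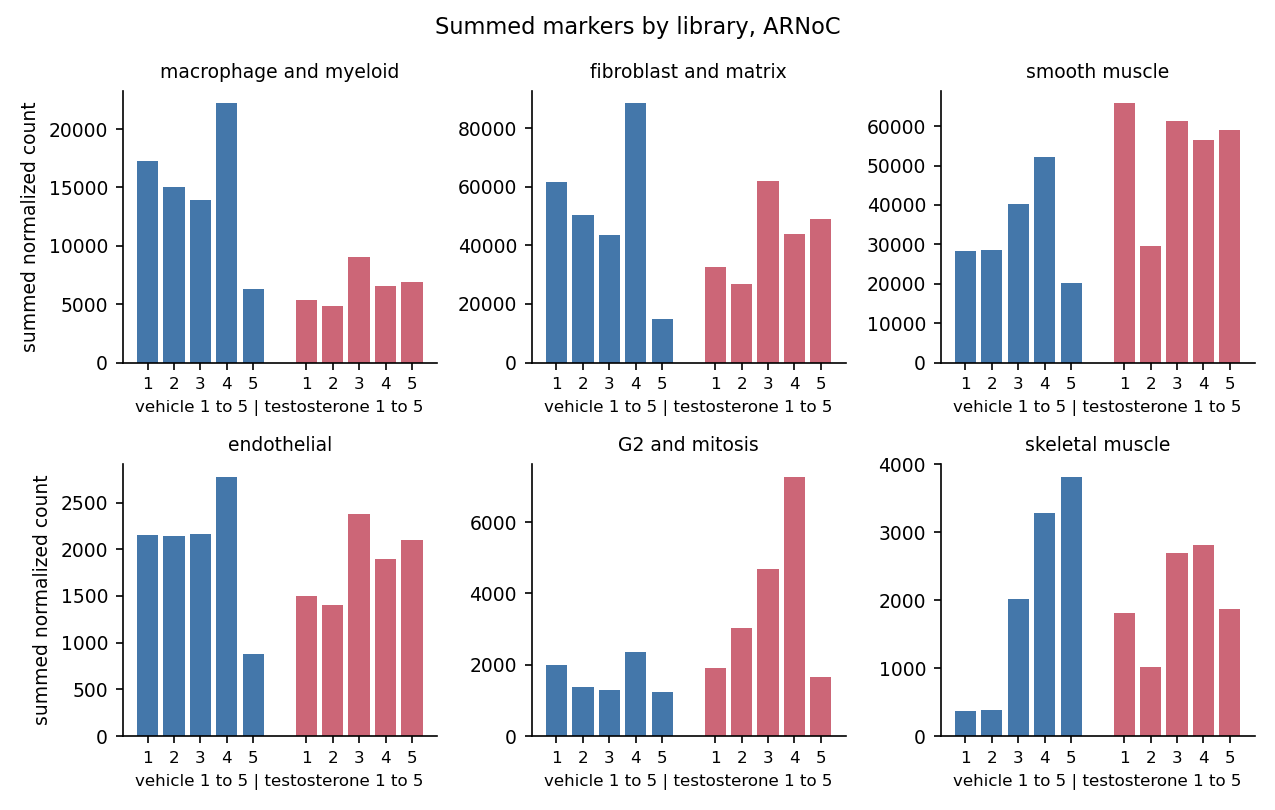
Summed normalized counts of 6 marker lists in each ARNoC library, vehicle 1 to 5 in blue and testosterone 1 to 5 in red, with each axis starting at 0. Vehicle library 5 is lowest for fibroblast (14839), smooth muscle (20185) and endothelial (876) markers, testosterone libraries 3 and 4 are highest for mitosis, and vehicle libraries 1 and 2 are lowest for skeletal muscle. In the skeletal muscle sums, Acta1 is the largest member in every testosterone library.

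Some libraries stood higher than others in genes known from other tissues or lobes. Whether other tissue was carried over was not tested. Skeletal muscle genes summed to 373 and 377 in vehicle libraries 1 and 2 and to 2023, 3282 and 3814 in vehicle libraries 3, 4 and 5, with 1017 to 2806 in the testosterone libraries. Acta1, a skeletal muscle actin, stood at 183, 207, 597, 974 and 877 with vehicle and at 1299, 762, 2005, 1770 and 1447 with testosterone. It was the largest member of the sum in every testosterone library. Tnnt3, a troponin gene, stood at 6.47, 10.8, 179, 298 and 519 and then at 3.19, 0, 25.8, 78.6 and 16.6. Ttn, the giant muscle protein titin, stood at 4.31, 1.27, 125, 282 and 344 with vehicle and at 0, 0, 22.3, 70.8 and 8.31 with testosterone and was not called (adjusted p 0.226). Of 13 tested skeletal muscle genes 1 rose and none fell, with a median log2 change of -1.34. The gene that rose was Myh2, a myosin heavy chain (6.94-fold, from 0.633–11.1 to 10.5–45.7, adjusted p 0.00868), with overlap. Tgm4, a transglutaminase known from the anterior and dorsal lobes, stood at 34.5, 34.8, 21.3, 24.1 and 37.0 and then at 238, 4669.7, 1027, 24.0 and 47.5. It was called (39.1-fold higher, adjusted p 0.00137), but testosterone library 4 was within the vehicle range and library 5 just above it, and without testosterone library 2 the log2 change was 3.41 in place of 5.29. The call of Tgm4 was lost with limma-voom (log2 2.81, adjusted p 0.183). Of 12 tested markers of other prostate lobes, 7 rose and 2 fell. The 7 included Msmb, Apof and 9530002B09Rik, described above. 9530053A07Rik, of the same list, did not pass the filter. It was at 0–15.8 with vehicle and at 311, 13072.5, 1281, 0 and 2.37 with testosterone. The 2 that fell were Krt23 (4.11-fold, from 325–938 to 87.8–256) and the carboxylesterase gene Ces1d (3.63-fold, from 736–1726 to 189.6–643), both with no overlap. The acute phase gene Hp stood at 629, 538, 542, 226 and 312 and then at 411, 329, 3950.1, 302 and 650.5, with testosterone library 3 far above all others, and was not called. Ltf, lactoferrin, stood at 121, 174, 5.32, 741 and 135 and then at 2.13, 0, 17.6, 74.4 and 5.93, with overlap. It was called lower (log2 -3.38 ± 0.99 SE, adjusted p 0.0106), but without vehicle library 4 the value was -2.30 and the call was lost, and without testosterone library 4 it was -5.22. The call of Ltf was also lost with limma-voom (adjusted p 0.153). Of 6 tested nerve markers 2 fell and none rose (33.3% and 0%, against 17.5% and 19.9% of all genes), and the median log2 change was 0.057. Mbp, one of those that fell, encodes a myelin protein and fell 1.45-fold, with no overlap.

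No gene was shown to respond differently in ARNoC and WT glands by edgeR. The test of that difference, the log2 change in ARNoC minus that in WT, called 0 of the 14595 genes (0%), with a smallest adjusted p of 0.0623, while 1259 genes (8.63%) had an unadjusted p under 0.05. DESeq2 called 26 genes and limma-voom 0. P2rx6, a subunit of ATP-gated channels, changed in opposite directions in the 2 genotypes. In ARNoC it stood at 385, 541, 467, 480.2 and 462 with vehicle and at 325, 348, 174, 370.1 and 325 with testosterone (log2 -0.59), and in WT at 665 ± 70.0 and 946 ± 103 (log2 0.51). The groups did not overlap in either genotype, and the difference of -1.10 ± 0.20 SE on the log2 scale had an adjusted p of 0.114. Cyp2b10, a drug-metabolising cytochrome P450, was not called in ARNoC (from 245–624 to 326–597) and rose in WT from 211 ± 51.4 to 929.6 ± 252 (difference -1.99 ± 0.33 SE, adjusted p 0.0623). Mug1 rose by 5.14 in ARNoC and by 3.10 in WT on the log2 scale (difference 2.04 ± 0.43 SE, adjusted p 0.193). Fgfbp1, a carrier of fibroblast growth factors, rose 2.93-fold in ARNoC, from 122–255 to 347–707, and was at 397 ± 184 and 355 ± 57.8 in WT (difference 1.72 ± 0.39 SE, adjusted p 0.257). Inhbb, an activin subunit, fell 5.19-fold in ARNoC (from 293–340.5 to 52.7–64.1), and Prlr, the prolactin receptor, rose 1.99-fold (from 1908–2400.2 to 3832–4451). Their differences from WT were -0.79 ± 0.16 SE (adjusted p 0.193) and -0.51 ± 0.10 SE (adjusted p 0.193).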

How the data were processed

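RNA was extracted from snap-frozen ventral prostates and made into Illumina TruSeq libraries, per the labels' protocols. The submitters' processing notes name FastQC 0.11.7, HISAT2, SAMtools 1.5, HTSeq, DESeq2 and build mm10. The authors deposited raw counts per gene for 20 libraries, 5 in each of 4 groups, in columns matched to samples by title. They also deposited a normalized signal per gene (called normalized counts here), which equals the count divided by the library's size factor (largest difference 4.19e-09), and the size factors themselves, a ratio per library.

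Counts of genes passing the minimum were fitted with edgeR 4.0.16 (R 4.3.3): TMM scaling, 1 mean per group over all 20 libraries, glmQLFit and glmQLFTest, with Benjamini-Hochberg adjustment at 0.05. The script was tested on simulated counts. Replicate numbers follow the order of the samples and pair nothing. DESeq2 1.42.0, limma-voom (limma 3.58.1), other scalings, filters, thresholds and sets of libraries were tried as alternatives. At the lowest depth (9791564 counts) a gene at 10 normalized counts rests on few reads, so values near it are imprecise.

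Genes were named by a rule: the 12 largest rises and falls (no overlap, and a mean of 100 normalized counts or more in whichever group was higher), the 3 called members of each list with the smallest adjusted p in each direction, the 6 strongest interactions in each direction, the 8 most variable genes of each group and the 10 most abundant. The members and lists were chosen with earlier results of these data known. Genes outside the rule, among them Hspa5, Pdia6, Creld2, Fkbp11, Sgk1, Asns, Pycr1, Dbp, Per2, Psca and all genes given as not called, were chosen after their values were seen. A few genes are not reported here. Gene coordinates and biotypes come from the GENCODE annotation of GRCm38, the assembly of mm10, and promoters from RefSeq (GRCm38.p6).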

Additional observations from a re-analysis of the deposited data

Results flagged for a closer look

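A library was counted as standing apart when its gap to the nearest other library of its group, divided by the range of the group, exceeded Dixon's critical value for 5 libraries (0.71). Over the genes, marker sums and library measures reported, 444 groups of 5 were examined and 35 held such a library. Chance gives about 5% of groups. Some genes were named for their spread or after their values were seen, so the 35 cannot be set against that share. Each value is in normalized counts, followed by the range of the other libraries of the group.

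Vehicle library 1 stood apart on the high side in G6pc2 (2.88, others all 0). Vehicle library 2 stood apart on the low side in Cyp2f2 (3399, others 5815–6417). Vehicle library 3 stood apart on the high side in Mcm2 (380.0, others 309–324). Vehicle library 3 stood apart on the low side in Acsl4 (675, others 849–889). Vehicle library 4 stood apart on the high side in Ifit2 (439, others 280.4–307) and Ltf (741, others 5.32–174). Vehicle library 4 stood apart on the low side in Hoxb13 (4597, others 5911–6258). Vehicle library 5 stood apart on the high side in Gsdmc2 (777, others 62.5–187), Ly6d (594, others 44.8–67.8), Nr3c2 (939.9, others 746–779), Psca (468, others 0–12.9), Spink3 (14436, others 3122–6393), Srd5a1 (154, others 48.9–65.9) and the summed seminal vesicle markers (13.9, others 1.05–4.56).

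Testosterone library 2 stood apart on the high side in Foxa1 (7047, others 5358–5734), H2-K1 (13677, others 10788–11548) and Tgm4 (4669.7, others 24.0–1027). Testosterone library 2 stood apart on the low side in Myh2 (10.5, others 38.4–45.7) and the summed smooth muscle markers (29502, others 56427–65765). Testosterone library 3 stood apart on the high side in Hp (3950.1, others 302–650.5), Idh1 (867, others 537–629) and Ly6a (1343, others 277–527). Testosterone library 3 stood apart on the low side in 9530002B09Rik (173445, others 234813–258475), Bmp7 (412, others 618–675), Elf3 (714, others 809.9–845), Erbb2 (1305, others 1528–1618), Ern1 (1371, others 1906–2095), P2rx6 (174, others 325–370.1), Upk1b (417, others 599–662) and the summed urothelium markers (4091, others 6581–7183). Testosterone library 4 stood apart on the high side in Ltf (74.4, others 0–17.6). Testosterone library 5 stood apart on the high side in Akr1c19 (1.19, others all 0), Cadps (10.7, others 1.06–3.51) and Sgpl1 (2980.5, others 1665–2033). Testosterone library 4 had 21600352 counts in total, against 11012583–12257969 in the other testosterone libraries.

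Of these, 11 lay in testosterone library 3 and 7 in vehicle library 5. P2rx6 was the 1 reported gene whose libraries moved down without overlap in ARNoC and up without overlap in WT. The difference of -1.10 on the log2 scale was tested in the same fit and was not called (adjusted p 0.114).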

How the results depend on the processing

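Of the 216 genes named by the rule and reported here, 199 were called, and 80 of these kept the call and its direction under every alternative run. The other 119 lost or reversed it in at least 1, of which 21 lost it outside the stricter threshold and 12 without 1 ARNoC library. Tested against a log2 change of 1, 279 genes were called higher and 139 lower. Total-count scaling called 1143 higher and 7433 lower and 2 interactions, and turned the direction of Hsd17b4 (-0.15), Ncoa1 (-0.089), Raly (-0.19), mt-Co1 (-0.048) and mt-Cytb (-0.024, log2). DESeq2 called 26 interactions, and leaving out 1 library at a time gave 0 to 1. The cause of these differences was not tested. No paired analysis was possible because the replicate numbers are only the order of the samples. Without 1 library, Adam7, at a log2 change of 10.78, ranged from 9.35 to 12.61, and Mki67 lost its call (1.18 to 1.78). Depth limits the genes near the minimum, where 11.3% rose and 13.5% fell among those with a mean under 100 normalized counts.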
